A study of Mus musculus with 12 samples.

Results

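Isolated hepatocytes were compared here with whole liver, both from mice in which Cdk1 had been deleted in the liver. The 6 libraries were chosen by their labels: 3 hepatocyte and 3 whole liver libraries of the knockout, out of 12 libraries in the series. The measured quantity is the level of each gene in FPKM, fragments scaled to transcript length and library size, as the authors deposited it. All groups come from mice at postnatal day 14. The knockout, written Cdk1 Liv-/- in the labels and KO below, carries a floxed Cdk1 gene. Cre under the Albumin promoter, which is active in hepatocytes, removes its exon 3. In the paper, in situ staining for this exon was seen in interstitial cells of the knockout liver and not in its hepatocytes. Which other cell types keep the gene was not tested here. The remaining 6 libraries are 3 of hepatocytes and 3 of whole liver from wild-type mice, WT below, and serve only for comparison. The mice were on a standard diet in a specific-pathogen-free facility, and the methods speak of male mice only. Hepatocytes were isolated and pelleted, while whole liver was snap frozen, so any effect of the isolation itself cannot be told apart from the difference in cells. Nothing in the labels says whether libraries come from separate animals, so the p-values measure the spread between these samples only.

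Most of the mass of a liver is hepatocytes, which make the plasma proteins, urea, bile acids and glucose and differ along the lobule between the portal and the central vein. Between and around them lie sinusoidal endothelial cells, Kupffer cells (the resident macrophages), stellate cells that store vitamin A, fibroblasts and bile duct cells of the portal tracts, and blood cells. Cdk1 is the kinase that drives cells into mitosis. A comparison of isolated hepatocytes with the whole organ asks which transcripts lie with the hepatocytes and which with the other cells, while fewer cells of a type and less RNA per cell cannot be told apart in such bulk samples.

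Depth was estimated from the steps of the FPKM values, since the table holds no read counts. An FPKM of 1 on 1 kb of transcript stood for 40.5, 39.6 and 34.9 reads in the KO hepatocyte libraries and for 47.7, 47.5 and 48.3 reads in the KO whole liver libraries. In the WT libraries it stood for 49.9, 38.6 and 47.4 reads in hepatocytes and for 41.7, 41.8 and 43.4 reads in whole liver. A gene of 1 kb under 0.1 FPKM thus rested on a few reads, and its changes were not detectable at this depth unless large.

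Some libraries stood apart from their group. KO whole liver replicate 3 had 158 FPKM of Xist, the RNA that coats the inactive X chromosome, and 0 FPKM of Kdm5d, Uty, Ddx3y and Eif2s3y, which lie on the Y chromosome, while each of the other 11 libraries had at most 0.14 FPKM of Xist. In those 11 libraries Ddx3y lay between 14.3 and 22.6 FPKM. Among the WT hepatocytes, replicate 3 had a summed level of sinusoidal endothelial markers of 407 FPKM, against 225 and 150.5 in replicates 1 and 2 and 211, 246 and 279 in WT whole liver. Its sums were also the highest of its group for Kupffer cell and macrophage markers (908 FPKM, against 497 and 267). The same held for stellate cell markers (523 FPKM, against 268 and 175). KO whole liver replicate 1 had a summed level of interferon-inducible genes of 1231 FPKM, against 254 and 321 in replicates 2 and 3. KO whole liver replicate 2 had a summed level of pericentral hepatocyte genes of 920.1 FPKM, against 3255 and 2793 in replicates 1 and 3. Named calls and counts that depend on one of these libraries, or on any other, are mostly given with and without it.

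Cdk1 itself was detected in every library. It stood at 9.68, 11.8 and 6.87 FPKM in KO hepatocytes, 11.7, 12.1 and 14.2 in KO whole liver, 27.9, 20.4 and 28.2 in WT hepatocytes and 25.3, 22.7 and 21.5 in WT whole liver. All 6 KO values lay below all 6 WT values. Within the KO, the hepatocyte and whole liver values overlapped, with a log2 fold change of -0.43 (limma, adjusted p = 0.141) for hepatocytes minus whole liver, so the gene was not called. The values cover all exons of the gene, and how much of the RNA comes from the deleted allele was not tested. In the paper, qPCR found hardly any Cdk1 RNA in isolated KO hepatocytes of this age, and immunoblots showed no CDK1 protein there. The FPKM values are another measure and do not say how complete the deletion was.

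Fold changes are hepatocytes minus whole liver, and called genes have an adjusted p no higher than 0.1 together with a change of 1 or more on the log2 scale, up or down. Of 17386 genes tested in the KO, 262 were called higher in hepatocytes (1.51%) and 1644 higher in whole liver (9.46%). By the adjusted p alone, 8.86% of all tested genes were higher in hepatocytes and 35.9% higher in whole liver. For 1876 of the 1906 called genes the 3 hepatocyte libraries did not overlap with the 3 whole liver libraries, and among all tested genes 50.7% had no overlap. The median log2 fold change over all tested genes was -0.19. Scaling the libraries by median ratios moved that median by 0.206, to 0.02, and the hepatocyte share of the calls went from 13.7% to 27.6%, with 467 called higher in hepatocytes and 1227 higher in whole liver. A list median relative to that of all genes is its value plus 0.19, and some are also given so. Under this scaling the counts of called genes of some lists named below changed: called higher in hepatocytes were 3 of the hepatocyte transcription factors, 4 of the bile acid genes, 2 each of the drug cytochromes, chemokines, S phase genes, p53 targets, integrated stress genes and NRF2 genes and 1 of the complement genes, and higher in whole liver 5 of the interferon-inducible genes, 4 of the cytokines and receptors, 3 of the dendritic cell, 2 of the heat shock and 1 of the platelet genes. Without KO whole liver replicate 3 the counts were 229 and 1714, of which 194 and 1572 were also called with all libraries.

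**Figure D1:**
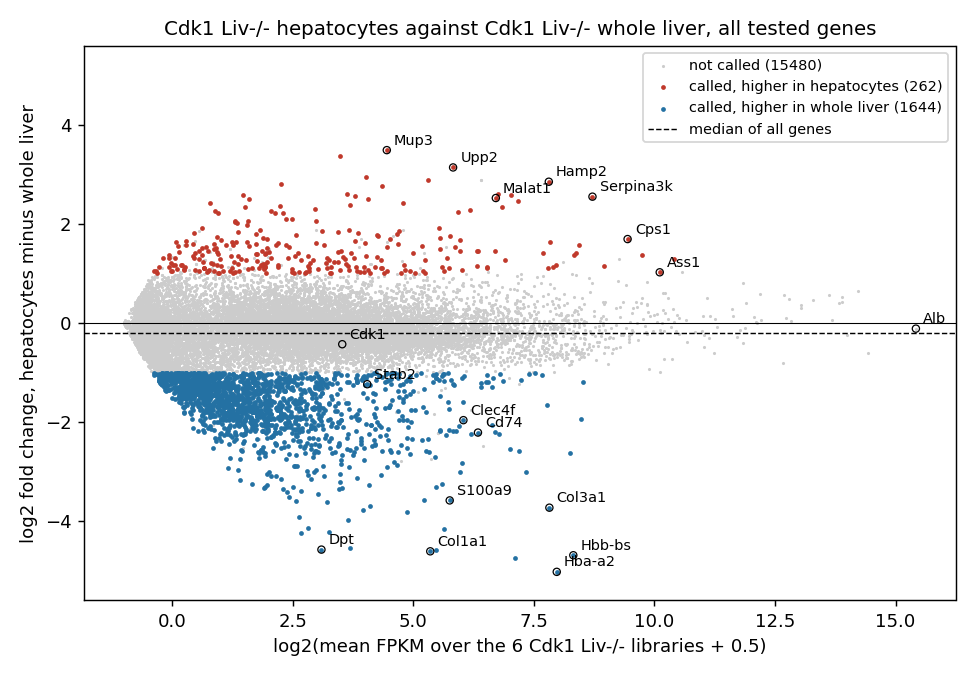
Each point is 1 of the 17386 tested genes, with its mean level over the 6 KO libraries as log2(FPKM + 0.5) on the horizontal axis and its log2 fold change, hepatocytes minus whole liver, on the vertical axis. Genes called higher in whole liver (1644, blue) outnumber those called higher in hepatocytes (262, red), and the dashed line marks the median of all genes at -0.19, which became 0.02 under median-ratio scaling.

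The genes higher in whole liver were more often low in the other group. Of the 1644, 917 had a mean under 1 FPKM in KO hepatocytes, 650 had at least 5 FPKM in whole liver, and 52 lay 3 or more log2 units below whole liver. Of the 262 genes higher in hepatocytes, 88 had a mean under 1 FPKM in whole liver, 153 had at least 5 FPKM in hepatocytes, and 3 had a log2 fold change of at least 3 (Mup3, Thrsp and Upp2, the largest by the rule for named genes). The scatter of fold change against level shows this asymmetry.

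The same comparison in WT, fitted in the same way on its own 6 libraries, gave 7 genes higher in hepatocytes (0.0403%) and 74 higher in whole liver (0.426%), 0.466% in either direction, with a median over all genes of -0.10. These WT counts depended on single libraries. They were 55 and 472 without WT hepatocytes replicate 3, 3 and 4 without WT hepatocytes replicate 2, 1 and 27 without WT whole liver replicate 1, 1 and 5 without WT whole liver replicate 2, and 4 and 30 without WT whole liver replicate 3. Without WT hepatocytes replicate 1, limma called 1 gene higher in hepatocytes and 0 higher in whole liver, where 388 and 2088 had an unadjusted p under 0.05. For the called KO genes the WT values stand beside as follows. The 262 genes had a median log2 fold change of 1.34 in the KO and 0.25 in WT, and 191 had a positive value in WT. The 1644 genes had a median of -1.49 in the KO and -0.47 in WT, and 1528 had a negative value in WT. Of the 1906 genes, 1 was called in the other direction in WT, Il1b, which encodes the cytokine interleukin 1 beta and was chosen here for that count after its values were seen. This WT call was lost with a replicate block, which ended every call in WT. Il1b is higher in WT hepatocytes, where leaving out single libraries left as few as 1 such call, and which gene that was is not given.

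The difference between the KO and the WT log2 fold changes was tested over all 12 libraries. In 140 genes the KO value was above the WT value (0.805%) and in 548 it was below (3.15%), 3.96% in either direction. Of the 262 genes higher in KO hepatocytes, 96 were among the former, and of the 1644 genes higher in KO whole liver, 528 were among the latter. Under median-ratio scaling the counts were 194 above and 272 below, and the share above went from 20.3% to 41.6%. They moved with single libraries too: leaving out WT whole liver replicate 1 gave 28 and 36, without replicate 2 of that group 73 and 136, and without replicate 3 89 and 184. Without WT hepatocytes replicate 1 they were 127 and 298, without replicate 2 141 and 1098, and without replicate 3 103 and 310, of which 90 and 293 were also called with all libraries. Without KO whole liver replicate 2 they were 78 and 128, without KO whole liver replicate 3 119 and 280, and without KO hepatocytes replicate 3 143 and 239. The difference is therefore given below as a median for the sinusoidal endothelial list, and as calls only for genes named with the libraries that end their call. For some other lists the KO and WT medians stand side by side.

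The main secreted products of hepatocytes gave 0 calls by limma. The 30 plasma protein genes summed to 126593, 133211 and 129800 FPKM in KO hepatocytes and to 148103, 148508 and 150290 in KO whole liver. The hepatocyte sums thus lay below those of whole liver, at 87.2% of their mean. Alb, albumin, the most abundant of them and the gene whose promoter drives Cre, stood at 41868, 44889.8 and 39898 FPKM in KO hepatocytes and 47348, 43328 and 46153 in KO whole liver, with overlapping groups and a log2 fold change of -0.11 (limma, adjusted p = 0.828), which became 0.16 under median-ratio scaling. By limma 0 of the 30 genes were called, with 1 higher and 2 lower in hepatocytes at an unadjusted p under 0.05, all 3 with an adjusted p of at most 0.1, and 0 called by the ordinary test. Their median was -0.07, or 0.12 above the median of all genes, and its sign flipped to 0.21 under median-ratio scaling. With 1 KO library left out at a time the median lay between -0.09 and 0.02, the latter without KO hepatocytes replicate 2.

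Of 17 hepatocyte transcription factors, 2 were called, both higher in hepatocytes, Onecut1 and Ppargc1a, and the median was 0.25, 0.44 above that of all genes, or 0.15 without KO hepatocytes replicate 3. Ppargc1a, a coactivator of gluconeogenic and mitochondrial genes, had 5, 4.32 and 3.99 FPKM in KO hepatocytes and 1.47, 1.35 and 2.35 in KO whole liver. The groups did not overlap, with a log2 fold change of 1.17 (limma, adjusted p = 0.0067). Onecut1, a factor of hepatocyte and bile duct development, had 1.11, 10.3 and 6.13 FPKM in KO hepatocytes and 0.98, 1.04 and 0.98 in KO whole liver, so that replicates 2 and 3 of the hepatocytes were high and replicate 1 lay near whole liver. It had a log2 fold change of 1.70 (limma, adjusted p = 0.0937), and the value was 2.499 without KO hepatocytes replicate 1. Its call was lost without KO hepatocytes replicate 2 (1.12, adjusted p = 0.209), KO hepatocytes replicate 3 (1.48, adjusted p = 0.23), KO whole liver replicate 1 (1.69, adjusted p = 0.189), KO whole liver replicate 2 (1.72, adjusted p = 0.191) or KO whole liver replicate 3 (1.69, adjusted p = 0.196), all by limma. Without any one of those 5 libraries 1 of the 17 factors was called. Hnf4a, the central factor of the hepatocyte programme, had 141, 120.3 and 170.3 FPKM in KO hepatocytes and 84.3, 88.02 and 83.5 in KO whole liver, higher in every hepatocyte library, with a log2 fold change of 0.74 (limma, adjusted p = 0.00893), under the fold needed, but 1.01 and called under median-ratio scaling.

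Calls among markers of the other liver cells were lower in KO hepatocytes with 1 exception, named below. Of 18 tested markers of sinusoidal endothelial cells, which line the capillaries of the liver, 17 were called, all lower in hepatocytes, with a median of -1.53. The sum of all 19 listed was 105, 67.6 and 77.4 FPKM in KO hepatocytes and 260.5, 304 and 265 in KO whole liver, so the groups were far apart. Stab1, the most abundant of them and a scavenger receptor, had 12.8, 7.44 and 12.1 FPKM in KO hepatocytes and 41.3, 55.9 and 44.5 in KO whole liver, with a log2 fold change of -2.10 (limma, adjusted p = 0.00162). Rspo3, a secreted enhancer of Wnt signals in the liver, had 0.78, 0.73 and 0.51 FPKM in KO hepatocytes and 5.12, 3.76 and 5.81 in KO whole liver. It was the member with the lowest value, a log2 fold change of -2.19 (limma, adjusted p = 0.000929). No member was at 0 in all 3 KO hepatocyte libraries, and 3 were under 1 FPKM in all of them.

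The WT libraries differed here. In WT the sinusoidal endothelial sums were 225, 150.5 and 407 FPKM in hepatocytes and 211, 246 and 279 in whole liver, overlapping, and the median log2 fold change was 0.04. Without WT hepatocytes replicate 3, the library with the highest sum, the WT median was -0.30. The hepatocyte mean was 30.1% of the whole liver mean in the KO and 106.3% in WT, or 76.5% in WT without that library. The median difference of the log2 fold changes, KO minus WT, was -1.54, and -1.22 without it. Across genes, WT hepatocytes replicate 3 correlated at r of 0.9849, 0.9847 and 0.9888 with WT whole liver replicates 1, 2 and 3. With WT hepatocytes replicates 1 and 2 the r was lower, 0.9796 and 0.9783. What sets that library apart was not tested.

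All 18 markers of vascular endothelium were called, all lower in hepatocytes, with a median of -1.97 in the KO and -0.25 in WT, or -0.64 in WT without hepatocytes replicate 3. Their sum was 65.5, 39.7 and 38.1 FPKM in KO hepatocytes and 202, 279 and 209 in KO whole liver. Pecam1, an adhesion molecule of all endothelium, had 3.21, 2.39 and 2.2 FPKM in KO hepatocytes and 9.21, 14.4 and 9.27 in KO whole liver, with a log2 fold change of -1.87 (limma, adjusted p = 0.00201).

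Of 20 markers of Kupffer cells and macrophages, 18 were called, all lower in hepatocytes, with a median of -1.96 in the KO and -0.57 in WT, or -0.99 in WT without hepatocytes replicate 3. Their sum was 314, 229.7 and 215 FPKM in KO hepatocytes against 907, 1247 and 943 in KO whole liver, 24.5% of its mean. Clec4f, a lectin found on mouse Kupffer cells, had 41.01, 21.1 and 20.4 FPKM in KO hepatocytes and 98.3, 107 and 104 in KO whole liver, with a log2 fold change of -1.96 (limma, adjusted p = 0.00341). Cd5l, the most abundant member and a secreted macrophage protein, had 43.1, 35.1 and 31.4 FPKM in KO hepatocytes and 139.8, 222 and 152 in KO whole liver, with a log2 fold change of -2.19 (limma, adjusted p = 0.00113). Adgre1, which encodes the F4/80 antigen, had 5.24, 3.97 and 3.38 FPKM in KO hepatocytes and 13.2, 20.4 and 13.7 in KO whole liver, with a log2 fold change of -1.78 (limma, adjusted p = 0.00248). In each of these genes KO hepatocytes replicate 1 was the highest of its group and still below every whole liver library.

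Of 15 monocyte markers, 13 were called, all lower in hepatocytes, with a median of -1.72. Ccr2, the receptor that draws monocytes into tissue, had 0.89, 1.04 and 1.5 FPKM in KO hepatocytes and 4.72, 6.47 and 4.05 in KO whole liver, with a log2 fold change of -1.76 (limma, adjusted p = 0.00244). In WT it stood at 0.23, 0.16 and 0.26 FPKM in hepatocytes and 0.77, 0.57 and 0.62 in whole liver, below both KO groups. Of 17 neutrophil genes, 11 were called lower in hepatocytes and 1 higher. S100a9, a subunit of calprotectin, had 8.78, 4.43 and 8.18 FPKM in KO hepatocytes and 40.3, 146 and 114 in KO whole liver, with a log2 fold change of -3.58 (limma, adjusted p = 0.00398), and whole liver replicate 1 was the lowest of its group. The neutrophil gene that went the other way was Prtn3, the granule protease proteinase 3, with 15.3, 12.9 and 21.7 FPKM in KO hepatocytes and 5.22, 11.3 and 7.03 in KO whole liver. It had a log2 fold change of 1.07 (limma, adjusted p = 0.0393), a call lost without KO hepatocytes replicate 3 (0.86, adjusted p = 0.112), KO whole liver replicate 1 (0.83, adjusted p = 0.0989) or KO whole liver replicate 3 (1.02, adjusted p = 0.112). In WT Prtn3 stood at 1.52, 1.31 and 2.66 FPKM in hepatocytes and 1.65, 0.89 and 2.32 in whole liver, below every KO library.

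The lists of stromal cells had the lowest medians of the cell type lists. Of 19 stellate cell markers, 18 were called, all lower in hepatocytes, with a median of -2.06 in the KO and -0.64 in WT, or -1.09 in WT without hepatocytes replicate 3. Dcn, the proteoglycan decorin and the most abundant of them, had 43.4, 32.95 and 35.8 FPKM in KO hepatocytes and 217, 213 and 224 in KO whole liver, with a log2 fold change of -2.54 (limma, adjusted p = 0.000292). Of 18 markers of portal fibroblasts and myofibroblasts, 16 were called, all lower in hepatocytes, with a median of -2.71 in the KO and -1.57 in WT. Their summed level in KO hepatocytes was 10.9% of that in KO whole liver. Dpt, the matrix protein dermatopontin, had 0.1, 0.26 and 0.21 FPKM in KO hepatocytes and 17.4, 15.9 and 14.5 in KO whole liver, with a log2 fold change of -4.58 (limma, adjusted p = 0.000214). Acta2, the smooth muscle actin of contractile cells and activated fibroblasts, had 0.22, 0.87 and 0.34 FPKM in KO hepatocytes and 21.8, 19.8 and 11.6 in KO whole liver, with a log2 fold change of -4.23 (limma, adjusted p = 0.000754). Mgp, an inhibitor of calcification, had 0.58, 0.42 and 0.68 FPKM in KO hepatocytes and 29.3, 23.7 and 19.9 in KO whole liver, with a log2 fold change of -4.54 (limma, adjusted p = 0.000224). Acta2, Dpt and Mgp were thus under 1 FPKM in all 3 KO hepatocyte libraries and above 11 FPKM in all 3 KO whole liver libraries.

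**Figure D2:**
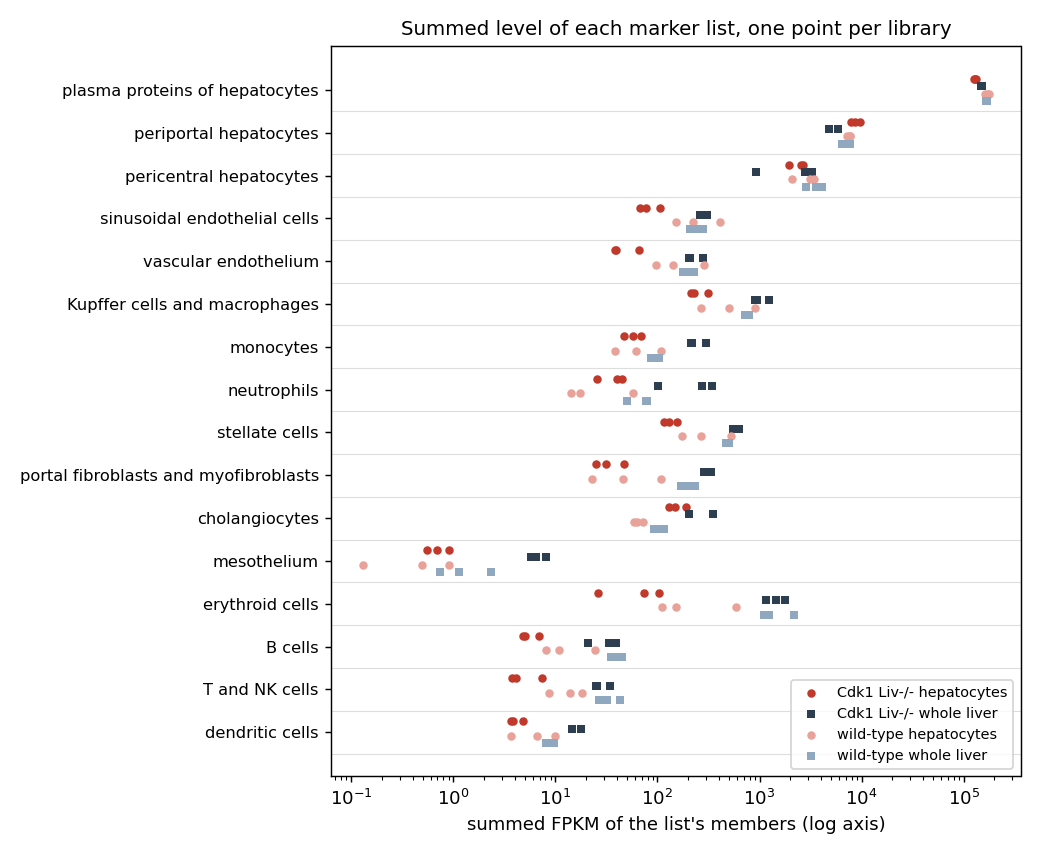
Each point is the summed FPKM of 1 marker list in 1 library, on a log axis, for KO hepatocytes (red circles), KO whole liver (dark squares), WT hepatocytes (pale circles) and WT whole liver (pale squares). In every list of other cell types shown, the 3 KO hepatocyte libraries lie below the 3 KO whole liver libraries, and WT hepatocytes replicate 3 is the highest library of its group.

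Calls among bile duct and surface markers went the same way. Of 14 cholangiocyte markers, 7 were called, all lower in hepatocytes, with a median of -1.13. Spp1, the secreted protein osteopontin, had 62.96, 119.9 and 95.6 FPKM in KO hepatocytes and 249, 130.4 and 248 in KO whole liver, so that whole liver replicate 2 lay just above hepatocytes replicate 2. The fit gave a log2 fold change of -1.15 (limma, adjusted p = 0.04), a call lost without KO hepatocytes replicate 1 (-0.90, adjusted p = 0.097), KO whole liver replicate 1 (-0.998, adjusted p = 0.116) or KO whole liver replicate 3 (-1.003, adjusted p = 0.123), or under median-ratio scaling (-0.88). Of 6 tested mesothelial markers, 5 were called, all lower in hepatocytes: Msln, Upk3b, Wt1, Gpm6a and Upk1b. Msln, the surface protein mesothelin, had 0.15, 0.09 and 0.13 FPKM in KO hepatocytes and 1.87, 2.86 and 2.03 in KO whole liver, with a log2 fold change of -2.13 (limma, adjusted p = 0.000725).

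Red blood cell transcripts were among the genes with the lowest fold changes. The 4 adult globin genes Hba-a1, Hba-a2, Hbb-bs and Hbb-bt were called with log2 fold changes of -4.74, -5.03, -4.69 and -4.59. Hba-a2, an alpha globin, had 23.9, 23.3 and 5 FPKM in KO hepatocytes and 389, 564 and 502 in KO whole liver, with a log2 fold change of -5.03 (limma, adjusted p = 0.00211). KO hepatocytes replicate 3 had the lowest globin levels, and without it the log2 fold changes of Hba-a2, Hbb-bs and Hbb-bt were -4.32, -4.08 and -3.92, less extreme. Of 20 erythroid markers 8 were called, all lower in hepatocytes. Of 14 B cell markers 7 were called, of 18 T and NK cell markers 12, of 11 dendritic cell markers 5 and of 9 platelet markers 2, again all lower in hepatocytes. The 5 dendritic cell genes were Batf3, Clec10a, Cd209a, Clec9a and Itgax, of which 3 were called without KO whole liver replicate 2. The 2 platelet genes were Pf4 and Itga2b, of which 1 was called without KO whole liver replicate 3. The 15 listed genes of pancreatic acinar cells summed to 9.32, 6.9 and 6.02 FPKM in KO hepatocytes and 19.4, 8.76 and 14.02 in KO whole liver. By limma 0 of the 6 tested were called, 0 had an unadjusted p under 0.05 and 1 was called lower by the ordinary test, while 1 was called lower without KO whole liver replicate 2.

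Extracellular matrix genes followed the same direction. Of 27, 24 were called, all lower in hepatocytes, with a median of -2.35 in the KO and -0.79 in WT. Col1a1, a chain of type I collagen, had 2.2, 3.27 and 2.35 FPKM in KO hepatocytes and 66.9, 112 and 55.2 in KO whole liver. The hepatocyte values were a few percent of those of whole liver, with a log2 fold change of -4.61 (limma, adjusted p = 0.000474). In WT it had 1.98, 0.84 and 9.4 FPKM in hepatocytes and 18.9, 19.1 and 25.97 in whole liver. Col3a1, of type III collagen, had 28.8, 32.1 and 30.5 FPKM in KO hepatocytes and 376, 565 and 324 in KO whole liver, with a log2 fold change of -3.73 (limma, adjusted p = 0.000401). Fn1, fibronectin, which hepatocytes also secrete, was the most abundant member and was not called, with a log2 fold change of -0.22.

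Of 17 matrix proteases and their inhibitors, 11 were called, all lower in hepatocytes, with a median of -1.52. Timp1, an inhibitor of matrix proteases, had 6.83, 9.88 and 12.8 FPKM in KO hepatocytes and 19.5, 30.1 and 21.6 in KO whole liver, with a log2 fold change of -1.25 (limma, adjusted p = 0.0135), but -0.98 and not called under median-ratio scaling. In WT it was at most 0.14 FPKM in hepatocytes and at most 0.85 FPKM in whole liver, so Timp1 stood well above these levels in both KO groups.

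Genes of TGF-beta and PDGF signalling were called lower in hepatocytes for 11 of 21, with a median of -1.08, and 1 was called higher without KO hepatocytes replicate 1. Tgfb1, the best-known ligand of the family, had 3.21, 1.81 and 2.06 FPKM in KO hepatocytes and 9.03, 14.9 and 10.1 in KO whole liver, with a log2 fold change of -2.05 (limma, adjusted p = 0.00246). Tgfb2 had 0.51, 0.34 and 0.4 FPKM in KO hepatocytes and 1.12, 1.01 and 1.16 in KO whole liver, with a log2 fold change of -0.80 (limma, adjusted p = 0.00423), under the fold needed. Inhbb, a subunit of activin B, had 1.92, 2.54 and 1.33 FPKM in KO hepatocytes, 12.02, 14.8 and 10.9 in KO whole liver, 14.3, 13.7 and 12.8 in WT hepatocytes and 6.95, 11.3 and 13.4 in WT whole liver. KO hepatocytes were thus the low group, with a log2 fold change of -2.45 (limma, adjusted p = 0.00101) and a difference from WT of -2.84 (limma, adjusted p = 0.00702).

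Inflammatory ligands split. Of 22 chemokines, 10 were called lower in hepatocytes and 1 higher, with a median of -0.90. Ccl2, which attracts monocytes, had 3.46, 3.91 and 6.11 FPKM in KO hepatocytes and 20.4, 13.4 and 9.19 in KO whole liver, with a log2 fold change of -1.54 (limma, adjusted p = 0.0144). Cxcl10, an interferon-inducible chemokine, had 12.99, 17.6 and 15.1 FPKM in KO hepatocytes and 65.2, 43.6 and 25.5 in KO whole liver, with a log2 fold change of -1.44 (limma, adjusted p = 0.0194). In WT hepatocytes these genes had 0.59, 0.21 and 1 FPKM (Ccl2) and 3.89, 2.99 and 3.57 FPKM (Cxcl10), below all KO hepatocyte values. Cxcl12, which holds blood progenitors in their niche, had 67.3, 72.2 and 41.96 FPKM in KO hepatocytes and 138, 103 and 128 in KO whole liver, with a log2 fold change of -1.05 (limma, adjusted p = 0.0164), a call lost without KO hepatocytes replicate 3 (-0.80, adjusted p = 0.0219) or KO whole liver replicate 1 (-0.96, adjusted p = 0.0557), or under median-ratio scaling (-0.77). The chemokine that was higher in hepatocytes was Cxcl14, with 4.59, 5.28 and 4.17 FPKM in KO hepatocytes and 1.69, 1.3 and 2.8 in KO whole liver. It had a log2 fold change of 1.13 (limma, adjusted p = 0.0143), a call lost without KO whole liver replicate 2 (0.94, adjusted p = 0.0383) or with a pseudocount of 1 (0.98), and was at most 0.07 FPKM in every WT library.

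Of 25 cytokines and their receptors, 6 were called lower in hepatocytes and 2 higher. Il1b had 0.69, 0.69 and 0.72 FPKM in KO hepatocytes and 3.85, 8 and 2.41 in KO whole liver, with a log2 fold change of -1.99 (limma, adjusted p = 0.0101). In WT it had 4.43, 3.83 and 4.78 FPKM in hepatocytes and 1.07, 0.93 and 1.7 in whole liver, so the order of the groups was opposite, with a difference of -3.49 (limma, adjusted p = 0.0103). The 2 genes higher in hepatocytes were Il6ra and Gdf15. Il6ra, the receptor chain for interleukin 6, had 16.3, 10.8 and 23.9 FPKM in KO hepatocytes and 9.43, 5.74 and 6.31 in KO whole liver, with a log2 fold change of 1.15 (limma, adjusted p = 0.0324), a call lost without KO hepatocytes replicate 3 (0.88, adjusted p = 0.0753), KO whole liver replicate 2 (1.02, adjusted p = 0.104) or KO whole liver replicate 3 (1.08, adjusted p = 0.101). Gdf15, a hormone released under stress, had 36.2, 22.2 and 16.3 FPKM in KO hepatocytes and 11.4, 14.2 and 7.2 in KO whole liver, with a log2 fold change of 1.13 (limma, adjusted p = 0.0482), a call lost without KO hepatocytes replicate 1 (0.82, adjusted p = 0.102), KO whole liver replicate 1 (1.18, adjusted p = 0.101) or KO whole liver replicate 3 (0.87, adjusted p = 0.132). Without KO whole liver replicate 3 neither was called. With all libraries, every hepatocyte value of both genes lay above every whole liver value.

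Of 21 genes of NF-kappaB feedback and its targets, 9 were called, all lower in hepatocytes, with a median of -0.68. The count was 4 without KO whole liver replicate 2 and 2 under median-ratio scaling. Icam1, an adhesion molecule, had 12.6, 14.4 and 14.8 FPKM in KO hepatocytes and 33.2, 29.8 and 23.4 in KO whole liver, with a log2 fold change of -1.01 (limma, adjusted p = 0.00414), a call lost without KO hepatocytes replicate 1 (-0.94, adjusted p = 0.0155), KO whole liver replicate 1 (-0.90, adjusted p = 0.014) or KO whole liver replicate 2 (-0.98, adjusted p = 0.0188), or under median-ratio scaling (-0.74). All 7 MHC class II genes were called, all lower in hepatocytes, with a median of -2.48. Cd74, the invariant chain of class II and the most abundant of them, had 29.4, 26.7 and 26.1 FPKM in KO hepatocytes and 118, 187 and 95.8 in KO whole liver, with a log2 fold change of -2.21 (limma, adjusted p = 0.00167).

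Interferon-inducible genes were high in 1 library. Of 19, 8 were called, all lower in hepatocytes, with a median of -1.31. Their sum was 227, 233 and 221 FPKM in KO hepatocytes and 1231, 254 and 321 in KO whole liver, where replicate 1 stood far above the others. Without that library the median was -0.53 and 5 genes were called. The count was 5 without KO hepatocytes replicate 1, 5 without KO hepatocytes replicate 2 and 4 without KO hepatocytes replicate 3. Gbp2, an interferon-induced GTPase, had 3.67, 3.93 and 4.88 FPKM in KO hepatocytes and 53.2, 8.58 and 8.96 in KO whole liver, with a log2 fold change of -1.85 (limma, adjusted p = 0.0812), or -1.001 without KO whole liver replicate 1. Its call was lost without KO hepatocytes replicate 1 (-1.77, adjusted p = 0.174), KO hepatocytes replicate 2 (-1.81, adjusted p = 0.166) or KO hepatocytes replicate 3 (-1.95, adjusted p = 0.152), or under median-ratio scaling (-1.59, adjusted p = 0.13). Ifi27l2a, another such gene, had 3.49, 3.44 and 3.9 FPKM in KO hepatocytes and 20.4, 17.7 and 21.9 in KO whole liver, with a log2 fold change of -2.32 (limma, adjusted p = 0.000292), and its 3 whole liver values lay close together.

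Of 32 genes of the actin cytoskeleton and injury keratins, 15 were called, all lower in hepatocytes, with a median of -0.99. Actb, the cytoplasmic beta actin, had 233, 258 and 177 FPKM in KO hepatocytes and 469, 602 and 460.2 in KO whole liver. The groups did not overlap, with a log2 fold change of -1.2003 (limma, adjusted p = 0.00472). Under median-ratio scaling Actb was not called (-0.93) and the list's count was 10.

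The called genes highest in KO hepatocytes over KO whole liver include secreted proteins and enzymes. Mup3, a major urinary protein, led with 61.4, 15.1 and 44.1 FPKM in KO hepatocytes and 2.35, 3.16 and 2.37 in KO whole liver. KO hepatocytes replicate 2 was the lowest of its group and still several times above every whole liver library, with a log2 fold change of 3.49 (limma, adjusted p = 0.00391). In WT Mup3 stood at 1.95, 1.67 and 1.64 FPKM in hepatocytes and 1.33, 0.73 and 2.11 in whole liver, so only KO hepatocytes were high among the 12 libraries. Its relative Mup2 had 8.93, 6.57 and 6.72 FPKM in KO hepatocytes and 1.1, 0.82 and 1.18 in KO whole liver, with a log2 fold change of 2.36 (limma, adjusted p = 0.00062). Thrsp, a thyroid hormone responsive gene of fat synthesis, had 18.3, 20.3 and 19.9 FPKM in KO hepatocytes and 1.45, 0.38 and 3.6 in KO whole liver, with a log2 fold change of 3.38 (limma, adjusted p = 0.00509). Nnmt, which methylates nicotinamide, had 86.2, 42.8 and 72.9 FPKM in KO hepatocytes and 4.23, 24.2 and 5.31 in KO whole liver, where replicate 2 was highest. The comparison gave a log2 fold change of 2.89 (limma, adjusted p = 0.0181), or 3.63 without KO whole liver replicate 2. Cyp17a1, a steroid hydroxylase, had 46.9, 12.9 and 24.9 FPKM in KO hepatocytes and 1.77, 5.36 and 2.14 in KO whole liver, with a log2 fold change of 2.95 (limma, adjusted p = 0.0096). In the WT libraries Cyp17a1 was at most 3.75 FPKM and Nnmt at most 5.23 FPKM.

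For other genes KO whole liver had the lowest mean of the 4 groups. Upp2, a uridine phosphorylase, had 119, 60.6 and 126 FPKM in KO hepatocytes, 12.5, 9.03 and 10.3 in KO whole liver, 86.6, 84.02 and 118 in WT hepatocytes and 116, 97.7 and 119 in WT whole liver. The 3 KO whole liver libraries stood well below the other 9, with a log2 fold change of 3.14 (limma, adjusted p = 0.00114) in the KO, -0.22 in WT and a difference of 3.36 (limma, adjusted p = 0.00642). Ces3a, a carboxylesterase, had 169, 199.7 and 177 FPKM in KO hepatocytes and 50.5, 11.9 and 41.3 in KO whole liver, with a log2 fold change of 2.61 (limma, adjusted p = 0.0118), or 1.98 without KO whole liver replicate 2.

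A further set was called in the KO and had a positive value in WT. Mia2, which helps to export large cargo from the endoplasmic reticulum, had 17.2, 23.8 and 28.3 FPKM in KO hepatocytes, 5.04, 3.41 and 2.26 in KO whole liver, 21.5, 17.9 and 11.3 in WT hepatocytes and 5.3, 4.68 and 4.51 in WT whole liver. All 6 hepatocyte libraries lay above all 6 whole liver libraries, with a log2 fold change of 2.56 (limma, adjusted p = 0.00201) in the KO and 1.66 in WT (limma, adjusted p = 0.0722). The WT call was lost with a replicate block, which ended every WT call. Without WT whole liver replicate 2, 1 gene was called higher in WT hepatocytes, so the calls of Mia2 and Il1b cannot both hold there. Malat1, a long nuclear RNA, had 139.6, 165 and 232 FPKM in KO hepatocytes, 26.4, 35.5 and 28.4 in KO whole liver, 108, 87.3 and 39.3 in WT hepatocytes and 27.7, 24.7 and 29.6 in WT whole liver. The fit gave a log2 fold change of 2.53 (limma, adjusted p = 0.000866) in the KO and, not called, 1.38 in WT.

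**Figure D3:**
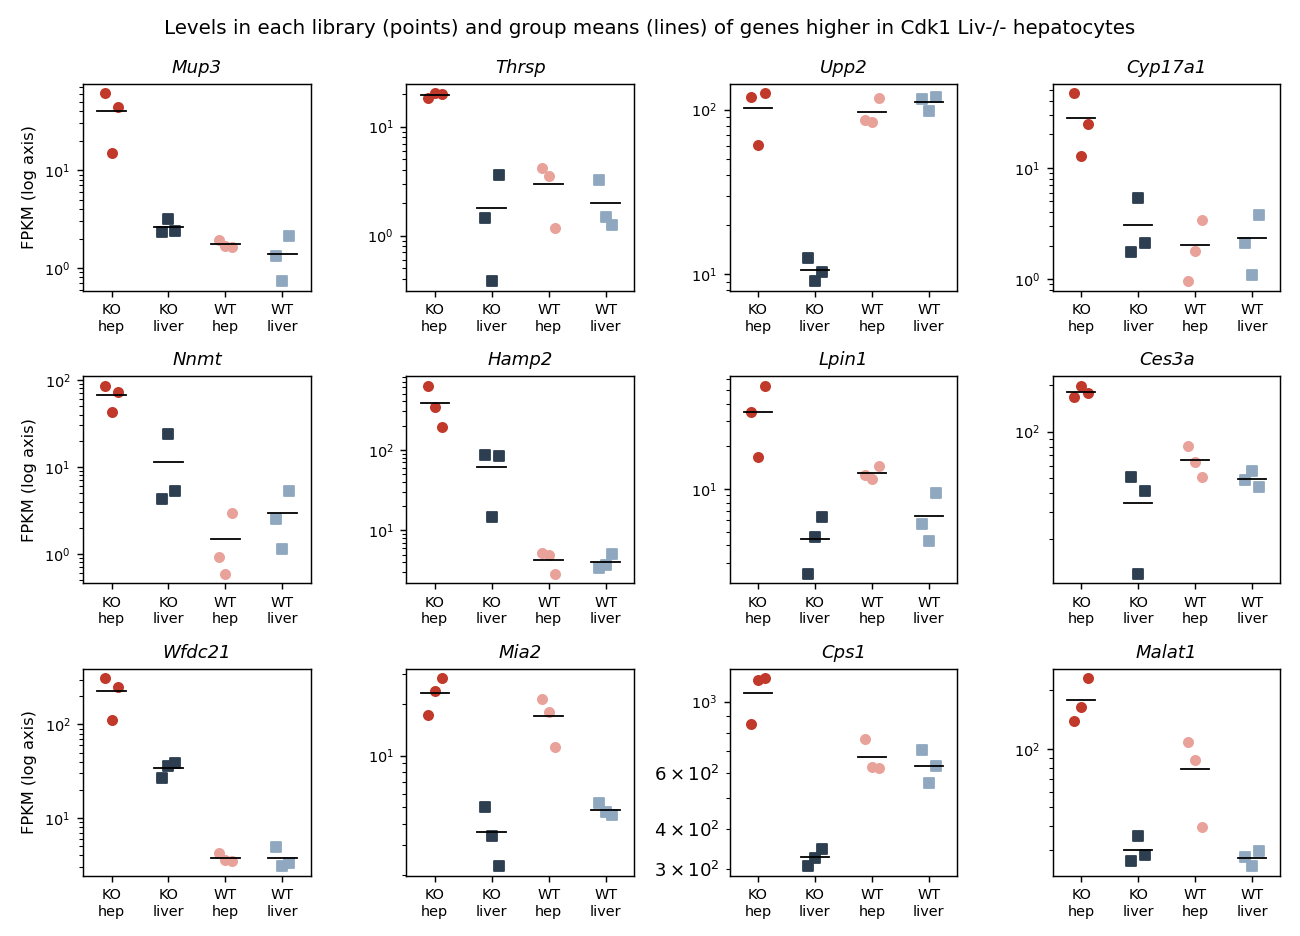
Each panel gives the FPKM of 1 gene in the 12 libraries on a log axis, with a point per library and a line at the mean of each group of 3, for KO hepatocytes, KO whole liver, WT hepatocytes and WT whole liver. All 12 genes were called higher in KO hepatocytes than in KO whole liver, where Upp2 and Cps1 are low in KO whole liver alone, Mup3, Thrsp, Cyp17a1, Nnmt, Hamp2 and Wfdc21 are highest in the 3 KO hepatocyte libraries, and Mia2 and Malat1 have every hepatocyte library above every whole liver library.

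Along the lobule, calls were seen among genes of periportal hepatocytes. Of 15, 6 were called, all higher in hepatocytes, with a median of 0.78 in the KO, 0.97 above that of all genes, and 0.06 in WT. Cps1, the entry enzyme of the urea cycle, had 851, 1166 and 1186 FPKM in KO hepatocytes, 305, 325 and 346 in KO whole liver, 764, 625 and 618 in WT hepatocytes and 708, 555 and 630.05 in WT whole liver. KO whole liver was the low group and KO hepatocytes lay above both WT groups. The log2 fold change was 1.70 in the KO (limma, adjusted p = 0.00109), with a difference from WT of 1.61 (limma, adjusted p = 0.01). Ass1, which joins citrulline and aspartate, had 1720.5, 1351 and 1381 FPKM in KO hepatocytes and 650.01, 719.6 and 811 in KO whole liver, with a log2 fold change of 1.03 (limma, adjusted p = 0.00432). The call of Ass1 was lost without KO hepatocytes replicate 1 (0.92, adjusted p = 0.0112) or KO whole liver replicate 1 (0.95, adjusted p = 0.0203), since its log2 fold change was then below 1. For Ass1, as for Cps1, every hepatocyte library was above every whole liver library.

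Sds, the periportal serine dehydratase, had 156, 63.1 and 127 FPKM in KO hepatocytes and 10.1, 56.3 and 17.9 in KO whole liver, where replicate 2 came close to the lowest hepatocyte library. The fit gave a log2 fold change of 2.28 (limma, adjusted p = 0.0387), or 2.96 without KO whole liver replicate 2, and its call was lost without KO hepatocytes replicate 1 (2.01, adjusted p = 0.107), KO hepatocytes replicate 3 (2.16, adjusted p = 0.111) or KO whole liver replicate 3 (2.14, adjusted p = 0.114). Without KO whole liver replicate 3, 5 of the 15 periportal genes were called.

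Genes of pericentral hepatocytes gave fewer calls. Of 15, 2 were called, Cyp2a5 and Oat, both higher in hepatocytes. Without KO hepatocytes replicate 2, 1 was called higher and 1 lower, and without KO whole liver replicate 2, 0 were called higher and 1 lower. The median was 0.12, or -0.06 without KO hepatocytes replicate 2 and -0.32 without KO whole liver replicate 2, the library with the low pericentral sum. Cyp2e1, the most abundant of them and an ethanol-oxidising cytochrome, had 1519, 882 and 1623 FPKM in KO hepatocytes and 2068, 363 and 1618 in KO whole liver. It was not called, and its log2 fold change of 0.28 turned to -0.50 without KO whole liver replicate 2. Glul, the glutamine synthetase next to the central vein, had 61.95, 66.5 and 75.4 FPKM in KO hepatocytes and 183, 65.6 and 152 in KO whole liver, with a log2 fold change of -0.85 (limma, adjusted p = 0.125). Without KO whole liver replicate 2 the value of Glul was -1.29 (limma, adjusted p = 0.00479), a call. Oat, ornithine aminotransferase, had 436, 246 and 209.8 FPKM in KO hepatocytes and 129, 54.1 and 166 in KO whole liver, with a log2 fold change of 1.42 (limma, adjusted p = 0.0592), a call lost without KO hepatocytes replicate 1 (1.11, adjusted p = 0.15), KO hepatocytes replicate 2 (1.52, adjusted p = 0.105) or KO whole liver replicate 2 (0.95, adjusted p = 0.108). Cyp2a5, a coumarin hydroxylase, had 57.8, 13.7 and 46.3 FPKM in KO hepatocytes and 12.4, 9.3 and 10.7 in KO whole liver, with a log2 fold change of 1.59 (limma, adjusted p = 0.0563), or 2.22 without KO hepatocytes replicate 2. Its call was lost without KO hepatocytes replicate 1 (1.1999, adjusted p = 0.137), KO hepatocytes replicate 3 (1.36, adjusted p = 0.159), KO whole liver replicate 1 (1.69, adjusted p = 0.109), KO whole liver replicate 2 (1.49, adjusted p = 0.15) or KO whole liver replicate 3 (1.59, adjusted p = 0.134). In KO whole liver replicate 2, Cyp2e1 stood at 363 FPKM and Glul at 65.6 FPKM, each the lowest of its group.

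The acute phase reactants, which the liver secretes in inflammation, were called higher in KO hepatocytes for 8 of 20, with a median of 0.83 in the KO, 1.02 above that of all genes, and -0.16 in WT. Without KO whole liver replicate 3, 5 were called and the median was 0.58, and without KO hepatocytes replicate 3 it was 0.44. Serpina3k, a protease inhibitor, had 715, 339 and 1118 FPKM in KO hepatocytes and 146, 65.9 and 137 in KO whole liver, with a log2 fold change of 2.55 (limma, adjusted p = 0.0115). Saa2, serum amyloid A2, had 128, 109 and 218 FPKM in KO hepatocytes, 53.5, 63.4 and 42.8 in KO whole liver, 1.65, 0.87 and 1.5 in WT hepatocytes and 1.79, 2.19 and 2.54 in WT whole liver. Both KO groups stood far above both WT groups, and within the KO the hepatocytes were higher, with a log2 fold change of 1.45 (limma, adjusted p = 0.0111). Saa1 had 261, 219 and 432 FPKM in KO hepatocytes and 139, 169 and 103 in KO whole liver, with a log2 fold change of 1.11 (limma, adjusted p = 0.0305), a call lost without KO hepatocytes replicate 3 (0.83, adjusted p = 0.0582) or KO whole liver replicate 3 (0.92, adjusted p = 0.0947). Orm3, an orosomucoid, had 31.6, 10 and 22.7 FPKM in KO hepatocytes and 4.3, 2.29 and 3.62 in KO whole liver, with a log2 fold change of 2.38 (limma, adjusted p = 0.00901). Orm1, its abundant relative, had 394, 291 and 711 FPKM in KO hepatocytes and 135, 259 and 129.99 in KO whole liver, with a log2 fold change of 1.38 (limma, adjusted p = 0.0404), a call lost without KO whole liver replicate 1 (1.24, adjusted p = 0.116) or KO whole liver replicate 3 (1.21, adjusted p = 0.124). Every WT library had under 1 FPKM of Orm1.

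Hamp2, of the hepcidin family, had 629, 343 and 189.7 FPKM in KO hepatocytes and 85.6, 14.5 and 83.2 in KO whole liver, with a log2 fold change of 2.86 (limma, adjusted p = 0.0332), or 2.02 without KO whole liver replicate 2. Hamp, hepcidin, which limits the export of iron, had 202, 110.3 and 71.9 FPKM in KO hepatocytes and 81.04, 36.8 and 50.2 in KO whole liver, so that hepatocytes replicate 3 lay below whole liver replicate 1. It had a log2 fold change of 1.13 (limma, adjusted p = 0.0901), a call lost without KO hepatocytes replicate 1 (0.74, adjusted p = 0.196), KO hepatocytes replicate 2 (1.18, adjusted p = 0.16), KO whole liver replicate 2 (0.87, adjusted p = 0.237) or KO whole liver replicate 3 (1.09, adjusted p = 0.2). Saa4, a constitutive member of its family, had 221, 113 and 177 FPKM in KO hepatocytes and 77.01, 52.5 and 74.6 in KO whole liver, with a log2 fold change of 1.28 (limma, adjusted p = 0.0154), and WT levels of 89.8, 91.1 and 74.9 FPKM in hepatocytes and 96.5, 83.96 and 79.96 in whole liver. The rest of the list did not pass. Hp, haptoglobin and the most abundant member, had 3979, 4035 and 5489.8 FPKM in KO hepatocytes and 4222, 4503 and 4422 in KO whole liver, with a log2 fold change of 0.02 (limma, adjusted p = 0.942), and its sign turned without KO hepatocytes replicate 3 (-0.13) or KO whole liver replicate 1 (-0.0039). Lcn2, lipocalin 2, had 450.1, 559 and 963 FPKM in KO hepatocytes and 383, 662 and 516 in KO whole liver, with a log2 fold change of 0.30 (limma, adjusted p = 0.514), and -0.02 without KO hepatocytes replicate 3. Outside this list, the secreted protein Wfdc21 had 313, 113 and 249 FPKM in KO hepatocytes and 26.98, 36.4 and 39.3 in KO whole liver, with a log2 fold change of 2.59 (limma, adjusted p = 0.00454).

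The promoters of 4 of the 8 called acute phase genes are shown, since these genes were called in the same direction and their promoters hold a short motif. The letters TTNNGCAA, a core of the C/EBP binding sequence, were searched on both strands in the 250 bases before each start in RefSeq (GRCm38.p6). They occur in 9 of the 15 listed acute phase genes with an entry there and in 10.8% of the promoters of all 27025 genes with one. Of the 8 called genes, 6 had an entry and 4 held the letters: Saa1, Saa2, Saa4 and Orm3, in capitals below, with no overlap with another motif searched. Hamp and Hamp2 do not hold them, while Serpina3k and Orm1 had no entry. The motif TTCNNNGAA of STAT factors was held by 4 of the 15 (8.13% of all), CTGGGAA of the type 2 interleukin 6 response element by 2 (10.4%), the NF-kappaB motif by 0 (0.414%) and the CArG box of serum response factor by 0 (1.62%). The same motifs were searched in 24 immediate early genes with an entry, of which 3 held the CArG box. The motif shown was chosen after these matches were seen, and entries were found for fewer than 80% of the list, so the counts are a description and test nothing. No match says only that these letters are not in this window. The promoter of Saa1 lies on the minus strand of chr7:46742981-46743230, that of Saa2 on the plus strand of chr7:46751583-46751832, that of Saa4 on the minus strand of chr7:46732604-46732853 and that of Orm3 on the plus strand of chr4:63355908-63356157. The motif starts 182 bases before the start of Saa1, 183 before that of Saa2 and 121 before that of Orm3.
Saa1: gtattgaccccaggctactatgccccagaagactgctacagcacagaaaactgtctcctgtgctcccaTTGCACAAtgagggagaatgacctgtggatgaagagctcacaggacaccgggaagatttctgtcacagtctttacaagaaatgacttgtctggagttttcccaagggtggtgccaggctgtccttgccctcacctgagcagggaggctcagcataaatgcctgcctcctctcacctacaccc
Saa2: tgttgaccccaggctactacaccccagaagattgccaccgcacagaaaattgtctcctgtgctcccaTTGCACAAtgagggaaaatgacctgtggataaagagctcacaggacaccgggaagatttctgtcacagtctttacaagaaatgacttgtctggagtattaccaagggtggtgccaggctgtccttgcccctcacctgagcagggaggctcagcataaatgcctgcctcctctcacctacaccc
Saa4: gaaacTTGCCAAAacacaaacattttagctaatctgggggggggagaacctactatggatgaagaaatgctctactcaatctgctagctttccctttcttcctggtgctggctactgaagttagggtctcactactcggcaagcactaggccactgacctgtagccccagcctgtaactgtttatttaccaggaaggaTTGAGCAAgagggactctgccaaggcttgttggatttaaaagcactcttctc
Orm3: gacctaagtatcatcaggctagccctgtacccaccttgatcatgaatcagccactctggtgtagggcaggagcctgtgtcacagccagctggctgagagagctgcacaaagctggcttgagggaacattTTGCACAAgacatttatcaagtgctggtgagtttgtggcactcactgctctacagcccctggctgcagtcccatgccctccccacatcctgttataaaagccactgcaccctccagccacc

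**Figure D4:**
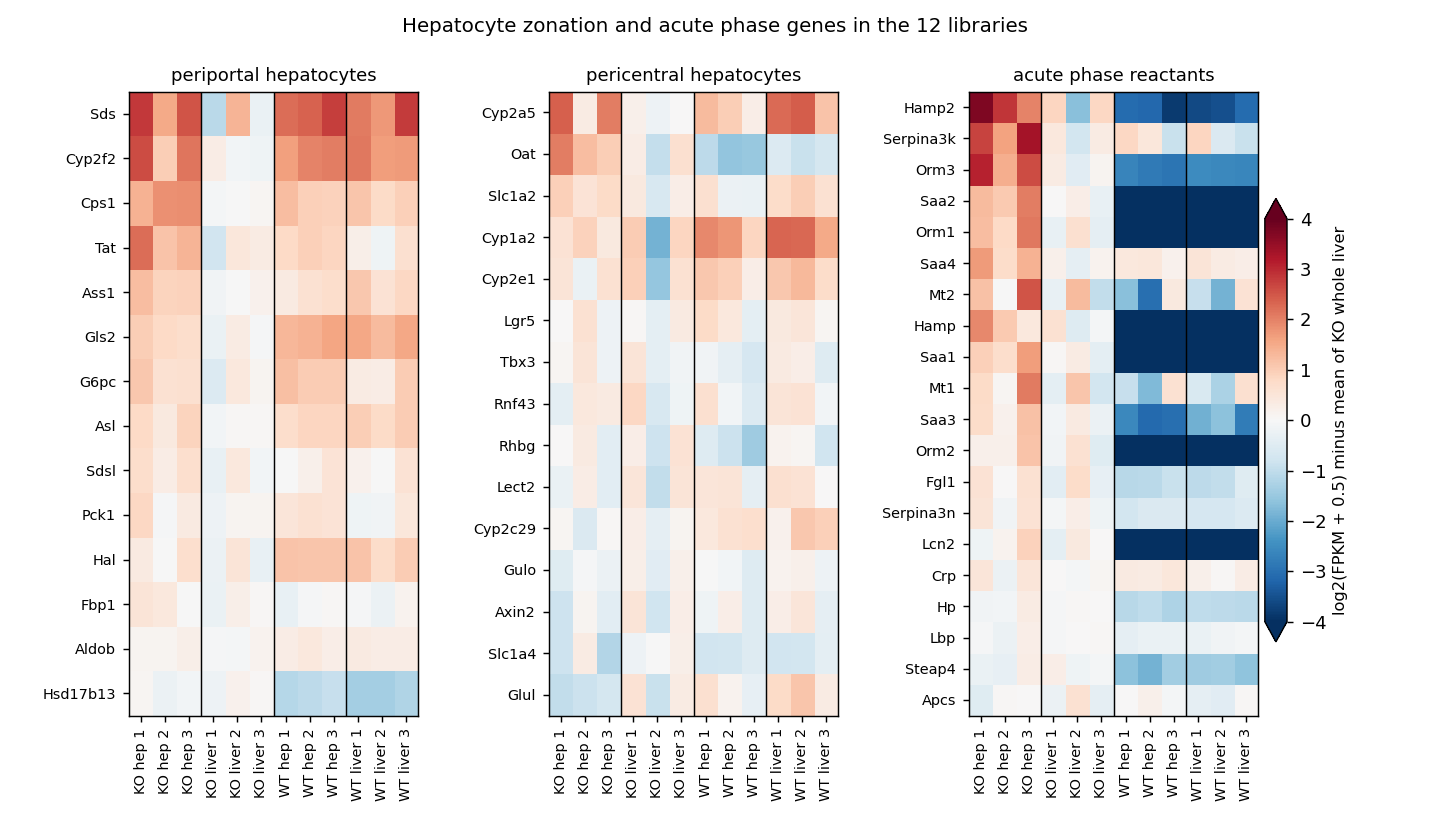
Each cell is log2(FPKM + 0.5) of 1 gene in 1 library minus the mean of that gene in the 3 KO whole liver libraries, for 14 of the 15 periportal genes, 15 pericentral genes and 20 acute phase reactants, with columns for the 12 libraries and colours limited to values between -4 and 4. Periportal genes are mostly above KO whole liver in KO hepatocytes and in both WT groups, pericentral genes are low in KO whole liver replicate 2, and Saa1, Saa2, Orm1, Orm2, Hamp and Lcn2 are lower in all WT libraries.

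Of the bile acid genes 5.56% were called higher in hepatocytes and of the drug cytochromes 0%, against 1.51% of all tested genes. Of 18 genes of bile acid synthesis and transport, 1 was called, Cyp7a1, the rate-limiting enzyme of bile acid synthesis, and the median was 0.39, or 0.22 without KO whole liver replicate 2. The count was 2 without KO hepatocytes replicate 2 and 3 without KO whole liver replicate 1. Cyp7a1 had 28.1, 52.5 and 41.4 FPKM in KO hepatocytes and 9.69, 8.19 and 14.3 in KO whole liver, higher in every hepatocyte library, with a log2 fold change of 1.86 (limma, adjusted p = 0.00498). Of 24 cytochromes P450 of drug metabolism, limma called 0, with 4 higher and 1 lower in hepatocytes at an unadjusted p under 0.05, the 4 with an adjusted p of at most 0.1, and 1 called higher by the ordinary test. The count was 1 without KO hepatocytes replicate 2, KO whole liver replicate 1 or KO whole liver replicate 2, and 2 without KO whole liver replicate 3. Of 19 complement genes limma also called 0, with 4 higher in hepatocytes at an unadjusted p under 0.05, 3 with an adjusted p of at most 0.1, and 0 by the ordinary test. The complement count was 1 without KO hepatocytes replicate 1 or KO whole liver replicate 1, and 1 in each direction without KO hepatocytes replicate 2.

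Fetal hepatocyte genes went both ways. Of 13 tested, 3 were called lower in hepatocytes (Afp, Dlk1 and Plagl1) and 1 higher (Tff3), and without KO hepatocytes replicate 2 the number lower was 6. Their median of -0.40 ranged from -0.70, without that library, to -0.13, without KO whole liver replicate 3 or under median-ratio scaling. Afp, alpha-fetoprotein, had 100.2, 254 and 96.5 FPKM in KO hepatocytes and 288, 628 and 759 in KO whole liver, with KO hepatocytes replicate 2 nearest to whole liver and a log2 fold change of -1.93 (limma, adjusted p = 0.0291). In WT it had 51.6, 50.5 and 116 FPKM in hepatocytes and 110.1, 82.3 and 74.5 in whole liver. Tff3, a trefoil peptide, had 20.5, 17.5 and 27.8 FPKM in KO hepatocytes and 4.26, 16.3 and 7.52 in KO whole liver, with a log2 fold change of 1.35 (limma, adjusted p = 0.0617), a call lost without KO hepatocytes replicate 1 (1.39, adjusted p = 0.123), KO hepatocytes replicate 3 (1.17, adjusted p = 0.169), KO whole liver replicate 1 (0.92, adjusted p = 0.125) or KO whole liver replicate 3 (1.30, adjusted p = 0.153).

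The number of cell cycle genes called depended on scaling and libraries. Called higher in hepatocytes were 5.71% of the G2 and M phase, 7.14% of the cytokinesis and 3.57% of the S phase genes. These are 1 or 2 genes per list, and 1.51% of all tested genes were called higher. Of 35 genes of G2 and M phase, 32 had a positive log2 fold change and 2 were called, Hmmr and Ttk, with a median of 0.57 in the KO, 0.76 above that of all genes, and 0.06 in WT. By the adjusted p of at most 0.1 alone, 14 of the 35 were higher in hepatocytes and 0 lower, where 8.86% of all tested genes were higher and 35.9% lower. The sums were 736, 854 and 441 FPKM in KO hepatocytes and 437, 389.5 and 522 in KO whole liver, so hepatocytes replicate 3 lay among the whole liver libraries. Without that library 9 of the 35 were called and the median was 0.86, and under median-ratio scaling 10 were called. The count was 4 without KO whole liver replicate 3, and 1 without KO hepatocytes replicate 2 (median 0.36) or KO whole liver replicate 2. In WT the sums were 293, 211 and 292 FPKM in hepatocytes and 287, 259 and 229 in whole liver. Hmmr, a spindle protein, had 16.2, 22.03 and 10.7 FPKM in KO hepatocytes and 5.71, 4.96 and 7.23 in KO whole liver, with a log2 fold change of 1.33 (limma, adjusted p = 0.013). Ttk, the spindle checkpoint kinase, had 9.3, 11.7 and 6.45 FPKM in KO hepatocytes and 4.25, 3.46 and 4.53 in KO whole liver, with a log2 fold change of 1.04 (limma, adjusted p = 0.0148), a call lost without KO hepatocytes replicate 2 (0.86, adjusted p = 0.0322) or KO whole liver replicate 2 (0.94, adjusted p = 0.0539), or with a pseudocount of 1 (0.97).

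Ccna2, the cyclin A2 partner of Cdk1, had 28.1, 33.5 and 15.5 FPKM in KO hepatocytes and 19.2, 18.3 and 20.6 in KO whole liver, overlapping, with a log2 fold change of 0.33 (limma, adjusted p = 0.379). Plk1, a mitotic kinase, had 15.7, 18 and 7.49 FPKM in KO hepatocytes and 10.1, 9.43 and 13.1 in KO whole liver, also overlapping, with a log2 fold change of 0.25 (limma, adjusted p = 0.588). Of 14 cytokinesis genes 1 was called, Kif20b, a kinesin of the midbody, with 4.04, 6.14 and 4.09 FPKM in KO hepatocytes, 1.85, 1.64 and 2.09 in KO whole liver and a log2 fold change of 1.14 (limma, adjusted p = 0.00611). Its call was lost without KO hepatocytes replicate 2 (0.96, adjusted p = 0.0102), or with a pseudocount of 1 (0.99). The cytokinesis count was 5 without KO hepatocytes replicate 3, 2 without KO hepatocytes replicate 1, 2 without KO whole liver replicate 3 and 6 under median-ratio scaling. By the adjusted p of at most 0.1 alone, 7 of the 14 were higher in hepatocytes and 1 lower. Of all tested genes 8.86% were higher and 35.9% lower at that threshold. Anln, anillin of the contractile ring, had 5.43, 8.79 and 4.1 FPKM in KO hepatocytes and 3.23, 2.74 and 3.7 in KO whole liver. Its groups did not overlap, but a log2 fold change of 0.77 (limma, adjusted p = 0.0668) was under the fold needed, and without KO hepatocytes replicate 3 the value was 1.003 and under median-ratio scaling 1.01, both calls. Racgap1, of the central spindle, had 17.3, 22.3 and 10.99 FPKM in KO hepatocytes and 9.98, 9.29 and 11.9 in KO whole liver, with a log2 fold change of 0.62 (limma, adjusted p = 0.105). Hepatocytes replicate 2 was the highest library for all of these genes.

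Of 28 S phase genes 1 was called, Rrm2, the small subunit of ribonucleotide reductase, and the median was 0.24, or 0.08 without KO hepatocytes replicate 2 and 0.44 without KO hepatocytes replicate 3. Rrm2 had 64.8, 56.5 and 38.3 FPKM in KO hepatocytes and 18.8, 20.4 and 24.9 in KO whole liver, with a log2 fold change of 1.27 (limma, adjusted p = 0.00674), and WT levels of 15.01, 18.8 and 18.9 FPKM in hepatocytes and 18.03, 16.2 and 17.5 in whole liver. KO hepatocytes thus stood above the other 9 libraries. Of 26 p53 targets 1 was called, Eda2r, a receptor of the tumour necrosis factor family. Eda2r had 2.48, 3.35 and 3.39 FPKM in KO hepatocytes and 1.14, 0.78 and 1.29 in KO whole liver, with a log2 fold change of 1.19 (limma, adjusted p = 0.00508), and was at most 0.16 FPKM in WT. With a pseudocount of 1 it was not called (0.98). Cdkn1a, the p21 inhibitor of cell cycle kinases, had 59.2, 47.6 and 46.8 FPKM in KO hepatocytes and 38.4, 50.5 and 54.8 in KO whole liver, overlapping, with a log2 fold change of 0.10 (limma, adjusted p = 0.65), which turned to -0.0045 without KO hepatocytes replicate 1 and to -0.05 without KO whole liver replicate 1. In WT it had 21.01, 22.7 and 30.4 FPKM in hepatocytes and 7, 8.72 and 17.9 in whole liver, below all KO values.

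Immediate early genes, which respond to stimuli within minutes, were called in both directions: 5 of 30 higher in hepatocytes and 4 lower. The 5 were Fos, Zfp36, Dusp1, Egr1 and Jun, of which 3 were called without KO hepatocytes replicate 1 or KO whole liver replicate 3. Fos, a subunit of AP-1, had 27.4, 22.1 and 15.2 FPKM in KO hepatocytes and 6.9, 9.03 and 2.68 in KO whole liver, with a log2 fold change of 1.82 (limma, adjusted p = 0.022), and in WT 8.74, 2.98 and 4.06 FPKM in hepatocytes and 0.73, 0.58 and 1.32 in whole liver. Zfp36, which marks RNAs for decay, had 154, 106 and 95.2 FPKM in KO hepatocytes and 42.6, 46.6 and 36.99 in KO whole liver, with a log2 fold change of 1.46 (limma, adjusted p = 0.00323). For Fos the WT log2 fold change was 1.97 and for Zfp36 1.35, both higher in each WT hepatocyte library than in any WT whole liver library. No overlap in WT, in either direction, was seen for 26% of all tested genes. In WT 0 of the 30 genes were called by limma or by the ordinary test. At an unadjusted limma p under 0.05, 8 were higher and 6 lower. Without WT hepatocytes replicate 3, limma called 5 higher. Handling and cell type cannot be told apart for these genes.

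The 4 immediate early genes lower in hepatocytes were Klf2, Dusp2, Socs3 and Dusp5, of which 2 were called without KO whole liver replicate 2 or under median-ratio scaling. The call of Socs3 was lost without KO hepatocytes replicate 1 (-0.93, adjusted p = 0.0925), KO hepatocytes replicate 2 (-0.98, adjusted p = 0.0972) or KO whole liver replicate 2 (-1.01, adjusted p = 0.112), and that of Dusp5 without KO hepatocytes replicate 1 (-1.03, adjusted p = 0.127), KO hepatocytes replicate 2 (-0.78, adjusted p = 0.145), KO whole liver replicate 1 (-1.08, adjusted p = 0.124) or KO whole liver replicate 2 (-0.77, adjusted p = 0.159). Klf2, a factor of endothelium, had 3.51, 1.45 and 2.14 FPKM in KO hepatocytes and 7.14, 9.48 and 8.9 in KO whole liver, with a log2 fold change of -1.71 (limma, adjusted p = 0.00588). All 3 hepatocyte libraries lay below all 3 whole liver libraries for each of these 4 genes.

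Calls among stress and metabolic genes went both ways. Of the heat shock list 17.6% was called lower in hepatocytes and of the hypoxia and glycolysis list 21.7%, against 9.46% of all tested genes. Of the integrated stress list 4.55% was called higher and of the NRF2 list 6.25%, 1 gene each, against 1.51% of all tested genes. Of 17 heat shock and chaperone genes, 3 were called lower in hepatocytes (Hmox1, Cryab and Hspb1). Of 22 genes of the endoplasmic reticulum and integrated stress responses, 1 was called, Chac1, which degrades glutathione. Chac1 had 5.35, 0.84 and 6.64 FPKM in KO hepatocytes and 0.6, 0.97 and 0.86 in KO whole liver, overlapping through hepatocytes replicate 2, with a log2 fold change of 1.56 (limma, adjusted p = 0.0996), or 2.31 without KO hepatocytes replicate 2, where the list's count was 3. Its call was lost without KO hepatocytes replicate 1 (1.25, adjusted p = 0.237), KO hepatocytes replicate 3 (1.11, adjusted p = 0.252), KO whole liver replicate 1 (1.44, adjusted p = 0.22), KO whole liver replicate 2 (1.65, adjusted p = 0.181) or KO whole liver replicate 3 (1.59, adjusted p = 0.194). Of 16 genes of NRF2 and glutathione, 1 was called, Gsta2, a glutathione transferase, with a count of 2 without KO hepatocytes replicate 2. Gsta2 had 12.6, 4.94 and 8.57 FPKM in KO hepatocytes and 2.93, 3.78 and 4.84 in KO whole liver, with a log2 fold change of 1.01 (limma, adjusted p = 0.0607), a call lost without KO hepatocytes replicate 1 (0.71, adjusted p = 0.126), KO hepatocytes replicate 3 (0.98, adjusted p = 0.148), KO whole liver replicate 1 (0.85, adjusted p = 0.165) or KO whole liver replicate 2 (1.01, adjusted p = 0.142). Of 23 genes of hypoxia and glycolysis, 5 were called lower in hepatocytes (Adm, Pkm, Slc16a3, Hk1 and Hk2), and 9 without KO whole liver replicate 1, with a median of -0.66, or -0.29 without KO whole liver replicate 2.

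Lists of the ribosome and the mitochondrion gave 0 calls by limma. Of 25 ribosomal protein genes limma called 0, while 24 were lower in hepatocytes at an unadjusted p under 0.05 and 0 were called by the ordinary test. Those 24 also had an adjusted p of at most 0.1 and missed only the fold. Among all tested genes 35.9% were lower at that adjusted p, the share beside which the other lists of this paragraph are read. All 25 were below 0, with a median of -0.60, or -0.41 relative to all genes, and sums of 5785, 5260.4 and 5339 FPKM in KO hepatocytes and 7185, 9464 and 7791 in KO whole liver. Of 20 genes of fatty acid oxidation and ketogenesis limma called 0, with 14 lower at an unadjusted p under 0.05, all 14 with an adjusted p of at most 0.1, 0 by the ordinary test and a median of -0.37, -0.18 relative to all genes and -0.10 under median-ratio scaling. Of 19 genes of cholesterol synthesis and uptake limma called 0, with 0 at an unadjusted p under 0.05 and 0 by the ordinary test. Their sums were 413, 898 and 447 FPKM in KO hepatocytes and 513, 664 and 608 in KO whole liver, so hepatocytes replicate 2 was the highest library. Without it 7 were called lower in hepatocytes. Of the 25 nuclear genes of the respiratory chain limma called 0, with 3 lower at an unadjusted p under 0.05, all 3 with an adjusted p of at most 0.1, and 0 by the ordinary test.

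All 13 protein genes of the mitochondrial genome lay above 0, with a median of 0.57 in the KO and 0.01 in WT. Their sums were 105085, 86575 and 86142 FPKM in KO hepatocytes and 68241, 57073 and 67365 in KO whole liver, without overlap, where the WT libraries lay between 74704 and 84556. By limma 0 were called, with 7 higher in hepatocytes at an unadjusted p under 0.05, 4 with an adjusted p of at most 0.1 and 1 by the ordinary test, and without KO hepatocytes replicate 2 the count was 1, mt-Co2, and under median-ratio scaling 3. That gene, a subunit of cytochrome oxidase, had 197, 84.2 and 95.6 FPKM in KO hepatocytes and 77.04, 35.1 and 69.2 in KO whole liver, with a log2 fold change of 1.02 (limma, adjusted p = 0.105), and was called under either scaling, with a filter at 1 FPKM, in a fit of 12 libraries and with a replicate block. FPKM are shares of a library, and the part of this difference in the other values was not tested.

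**Figure D5:**
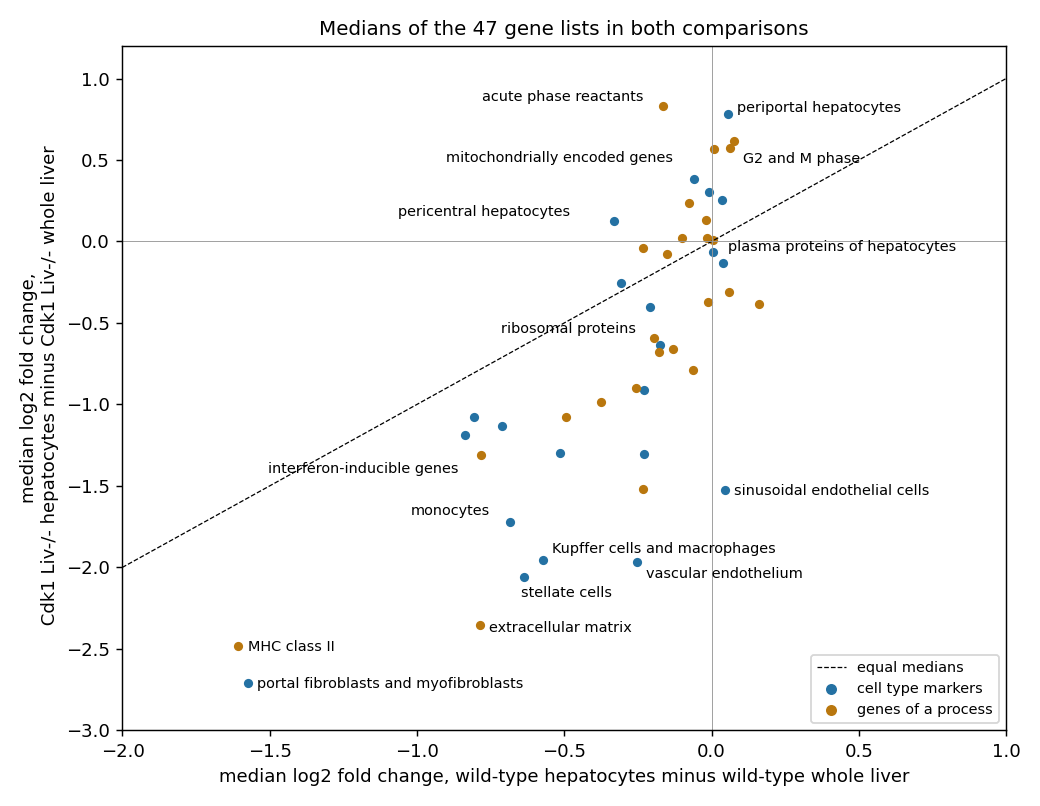
Each point is 1 of 47 gene lists, with the median log2 fold change of its tested members in WT (hepatocytes minus whole liver) on the horizontal axis and in the KO on the vertical axis, blue for cell type markers and brown for genes of a process. Most lists of other cell types lie below the dashed line of equal medians. With all libraries the sinusoidal endothelial list is the farthest to the right of them (WT median 0.04). Without WT hepatocytes replicate 3 its WT median is -0.30 and the pancreatic acinar list, at -0.14, lies to its right. Plasma proteins lie near 0 in both and turn from -0.07 to 0.21 in the KO under median-ratio scaling.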

How the data were processed

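RNA sequencing of polyadenylated RNA (TruSeq stranded libraries, single reads of 75 bases) gave 12 libraries, 3 in each of 4 groups. Per the submitters' processing notes, reads were aligned to mm10 with STAR (version not stated) and quantified with RSEM 1.2.31, and the FPKM values were used as the authors deposited them, with 0 per-sample columns unused. Of 47069 listed genes, 17386 with a mean of at least 0.1 FPKM over the 12 libraries were tested as log2(FPKM + 0.5) with limma 3.58.1 (trend, Benjamini-Hochberg) in R 4.3.3, hepatocytes minus whole liver, for the KO, for WT and for the difference. Named genes were Cdk1 and genes the study speaks of, the called genes with the most extreme fold changes among those with libraries that do not overlap and a mean of at least 5 FPKM in the higher group, those with the largest differences from WT, and the most abundant and extreme members of lists. Further genes, and members named because a count was 5 or fewer, were chosen after their values were seen. Of the named genes, 2 are not reported here. Members and lists were chosen with earlier results of these data known. Alternatives were other pseudocounts, filters, scalings, fits, tests and thresholds, a replicate block and leaving out each library. Where 1 library is left out, a group of 2 libraries is assumed to vary like the other groups.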

Additional observations from a re-analysis of the deposited data

Results flagged for a closer look

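Differences between the KO and the WT comparison were found over 12 libraries for 140 genes above and 548 below, and the genes with the largest ones, among those with a mean of at least 5 FPKM in a group, are given with the libraries without which limma no longer called them. Upp2 (3.36), Mup2 (2.93), Inhbb (-2.84) and Gm8730 (-2.87) were called without any 1 library. Nnmt had a difference of 3.68, or 4.43 without KO whole liver replicate 2, and its call was lost by limma without WT hepatocytes replicate 1 (3.54, adjusted p = 0.109), KO hepatocytes replicate 1 (3.48, adjusted p = 0.107), KO hepatocytes replicate 3 (3.60, adjusted p = 0.108), WT whole liver replicate 1 (3.69, adjusted p = 0.156), WT whole liver replicate 3 (3.23, adjusted p = 0.121) or KO whole liver replicate 3 (3.38, adjusted p = 0.114). Mup3 had 3.18, lost by limma without WT whole liver replicate 1 (3.17, adjusted p = 0.11). Cyp17a1 had 3.10, lost by limma without WT hepatocytes replicate 1 (2.76, adjusted p = 0.105), KO hepatocytes replicate 3 (3.10, adjusted p = 0.101), WT whole liver replicate 1 (3.10, adjusted p = 0.15), WT whole liver replicate 3 (2.75, adjusted p = 0.117) or KO whole liver replicate 3 (2.95, adjusted p = 0.112). Thrsp had 2.96, lost by limma without WT hepatocytes replicate 3 (2.498, adjusted p = 0.102), KO hepatocytes replicate 3 (2.94, adjusted p = 0.105), WT whole liver replicate 1 (2.62, adjusted p = 0.162), WT whole liver replicate 2 (3.08, adjusted p = 0.113), WT whole liver replicate 3 (3.17, adjusted p = 0.101) or KO whole liver replicate 2 (2.39, adjusted p = 0.113). Gm16567 had -3.41, or -4.12 without KO hepatocytes replicate 1, lost by limma without WT whole liver replicate 1 (-3.41, adjusted p = 0.126). Stfa2 had -2.80, lost by limma without WT whole liver replicate 1 (-2.91, adjusted p = 0.134), WT whole liver replicate 2 (-2.68, adjusted p = 0.11), WT whole liver replicate 3 (-2.80, adjusted p = 0.1) or KO whole liver replicate 2 (-2.40, adjusted p = 0.103). BC100530 had -2.79, lost by limma without WT whole liver replicate 1 (-2.85, adjusted p = 0.14), WT whole liver replicate 2 (-2.65, adjusted p = 0.113) or KO whole liver replicate 2 (-2.40, adjusted p = 0.108). Stfa3 had -2.53, lost by limma without WT whole liver replicate 1 (-2.57, adjusted p = 0.134) or WT whole liver replicate 2 (-2.52, adjusted p = 0.105). Some of these difference calls were also lost under other settings, by limma. With no filter these were Nnmt (3.68, adjusted p = 0.105) and Thrsp (2.96, adjusted p = 0.104). With a replicate block they were Cyp17a1 (3.10, adjusted p = 0.103), Nnmt (3.68, adjusted p = 0.106) and Thrsp (2.96, adjusted p = 0.104). With a pseudocount of 0.1 it was Stfa2 (-3.13, adjusted p = 0.11). Groups of 3 libraries were not tested for single libraries that lie far out.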

How the results depend on the processing

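Counts below are genes higher in hepatocytes and genes higher in whole liver, or above and below for the difference between the comparisons, and the cause was not tested for any of the changes. With a pseudocount of 0.1 the KO counts were 520 and 2749 and the WT counts 12 and 160, and with 1 the WT count in whole liver was 43 and the KO calls of Wt1, Jun, Cxcl14, Ttk, Kif20b, Eda2r, Chac1, Gsta2, Dusp2, Dusp5 and Icam1 were lost. With no filter the median of all genes in the KO was -0.0428, the WT counts were 2 and 39 and the differences 88 and 217, and the KO calls of Orm1, Cyp2a5, Oat, Onecut1, Egr1, Gbp2, Hamp, Gdf15, Chac1, Gsta2, Tff3 and Dusp5 were lost. With a filter at a mean FPKM of 1 the WT counts were 4 and 42, and the mesothelium list gave no value. With median-ratio scaling the KO count in hepatocytes was 467, the median of all genes 0.0156, Alb 0.16, the WT counts 4 and 37 and the differences below 272. With the same sum in every library the WT counts were 3 and 48, with all 12 libraries in 1 fit 16 and 144, and by the ordinary test 3 and 45. With a replicate block limma called 0 and 0 genes in WT (506 and 2743 at an unadjusted p under 0.05), 245 and 1623 in the KO, and 228 differences below, and the KO calls of Orm1, Sds, Onecut1, Gbp2, Chac1, Gsta2 and Dusp5 were lost. Across genes, which are not independent replicates, the deviations from the group means of KO hepatocyte and whole liver libraries that share a number correlated at r of -0.03, -0.06 and -0.12, and 0 of 6 KO libraries were most like their own number, while the WT pairs gave 0.05, 0.07 and 0.24, so pairing is not shown in the KO and cannot be judged in WT. With the adjusted p of at most 0.1 alone the counts were 1540 and 6234 in the KO, 18 and 247 in WT, and 409 and 1303 for the difference. At an adjusted p of at most 0.05 they were 1 and 24 in WT, and 61 and 101 for the difference. Leaving out 1 library at a time gave 210 to 328 and 1499 to 1738 genes in the KO, 1 to 55 and 0 to 472 in WT, and 28 to 196 and 36 to 1098 for the difference. Without WT hepatocytes replicate 1, 0 genes were called in whole liver by limma, with 2088 at an unadjusted p under 0.05. Without WT hepatocytes replicate 3 and KO whole liver replicate 3 together, chosen after seeing the data, the differences were 79 and 221. Over libraries left out, Cyp2e1 lay between -0.50 and 0.76, Cdkn1a between -0.0472 (with -0.0045 without KO hepatocytes replicate 1) and 0.21, Lcn2 between -0.0174 and 0.53, and Hp between -0.13 (with -0.0039 without KO whole liver replicate 1) and 0.10. The table holds no counts, so depth limits genes of low FPKM by an amount that could only be estimated.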
